A study of Mus musculus with 27 samples.

Results

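The immediate early response genes described here are Fos, Fosb, Fosl2, Jun, Junb, Jund, Egr1, Egr2, Ier2 and Myc. These 10 genes were chosen by symbol from the 55414 genes of the count table, through their Ensembl identifiers. The rule used their names and no measured value, but earlier results of these data were known when they were picked. RNA was measured by poly(A) RNA sequencing of whole liver from 27 female Balb/c mice, aged 8 weeks, in 8 groups. In 4 groups the mice received olive oil into the peritoneum: control mice (n = 4, with PBS into the tail vein), and mice given 4MU (n = 3), siLuc-LNP (n = 3) or siHAS2-LNP (n = 3). In the other 4 groups carbon tetrachloride (CCl4) was injected for 2 weeks, either alone (n = 2) or with 4MU, siLuc-LNP or siHAS2-LNP (n = 4 each). 4MU (4-methylumbelliferone), an inhibitor of hyaluronan synthesis, was given daily by mouth at 600 mg/kg. The lipid nanoparticles (LNP) carried siRNA against Has2, the gene of a hyaluronan synthase, or against luciferase, which mice lack, at 1 mg/kg first and 0.5 mg/kg later. Both 4MU and the nanoparticles were started 2 days before the first CCl4 injection, so they preceded the injury. The fibrosis model rests on repeated toxic injury to hepatocytes, and whole tissue was measured, so fewer cells of a type and less RNA per cell cannot be told apart. The time between the last CCl4 injection and the collection of the liver is not given in the sources used here.

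Immediate early response genes are switched on by growth factors, cytokines and stress without the need for new protein. Kinase cascades reach serum response factor at CArG boxes and CREB or ATF factors at cyclic AMP response elements near the gene's start, and the transcripts usually decay fast. Fos and Jun proteins pair to form AP-1, Egr1 and Egr2 are zinc finger factors, Ier2 is a small nuclear protein, and Myc drives growth and division. In liver this response is known from the first hours after partial hepatectomy and from toxic injury.

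The 500 bases before the annotated start of each gene (GRCm39, GENCODE vM39, both strands) were searched for the elements through which such genes are known to be switched on. A CArG box (CC, then A or T at each of the next positions, then GG) lay in this window in Fos, Fosb and Egr2, that is in 3 of the 10 genes, against 2.78% of the windows of 21627 protein-coding genes. The sites are shown because Egr2 had the largest response to CCl4 among these genes, while Fos and Fosb share the element. Capitals mark the box, and each line is written 5′ to 3′ on the strand of the gene.
Fos, 303 bases upstream, chr12:85520345-85520374: cacaggatgtCCATATTAGGacatctgcgt
Fosb, 266 bases upstream, chr7:19044223-19044252: tggccgagctCCTTATATGGctaattgcgt
Egr2, 368 bases upstream, chr10:67373314-67373343: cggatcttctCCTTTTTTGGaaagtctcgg
Egr2, 65 bases upstream, chr10:67373617-67373646: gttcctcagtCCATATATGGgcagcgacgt

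The cyclic AMP response element TGACGTCA lay in the windows of Jund and Ier2, 2 of 10, against 1.95% of all windows. Jun held the variant TGACATCA, which differs from it by 1 base and occurred in 3.72% of windows. These sites are shown because Jun and Ier2 moved in opposite directions in the CCl4 mice described below. Capitals mark the element.
Jun, 45 bases upstream, chr4:94940486-94940515: aagcctcggggTGACATCAtgggctatttt
Ier2, 43 bases upstream, chr8:85389508-85389537: tggtgttgcagTGACGTCActctcagtata
Jund, 214 bases upstream, chr8:71151374-71151403: ccccacccccaTGACGTCAacccacaatgc

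The AP-1 site TGANTCA was found in Fos alone of the 10 genes and in 12.4% of all windows. The GC-rich site GCGNGGGCG, bound by Egr factors, was found in Fosb, Jun and Jund and in 5.44% of windows. The TATAAA box was found in Fos, Junb and Myc and in 24.4% of windows, and the E-box CACGTG, bound by Myc, in none of the 10 and in 9.71% of windows. The pentamer ATTTA, the core of AU-rich decay elements, occurred at least once in the 3′ UTR of 9 of the 10 genes, from 1 copy in Fosb and Jund to 8 in Fosl2. At least 1 copy was present in 67.5% of 20757 3′ UTRs, and Ier2 had none. A match in these letters is a description and does not show that a factor binds. For the elements before the start, only the window at the annotated start used here was searched. A gene without a match there, such as Egr1 for the CArG box, may hold the element elsewhere.

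Levels differed widely between the genes. On the RPKM scale (reads scaled to gene length and library size), the control livers held 29.7 ± 6.29 of Ier2 (SD, n = 4), 13.7 ± 1.04 of Jund and 12.6 ± 4.35 of Junb. Jund and Junb did not differ beyond their spread. Below them came Egr1 with 3.33 ± 2.44 RPKM, Jun with 1.80 ± 0.12 and Myc with 1.19 ± 0.42. Fos (0.517 ± 0.292 RPKM) and Fosl2 (0.460 ± 0.0872) were at a like level on this scale. It divides by all annotated exon bases of the gene, 2358 for Fos and 10397 for Fosl2. In CPM, which are not scaled to length, they were at 1.22 ± 0.690 and 4.78 ± 0.907. Egr2 (0.0339 ± 0.0117 RPKM) and Fosb (0.0176 ± 0.0177) were close to the detection limit. Fosb had 0 to 19 counts per library, with the highest count in CCl4 mouse 2, and its mean of 3.52 counts was below the filter of 10, so 9 of the 10 genes were tested.

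**Figure D1:**
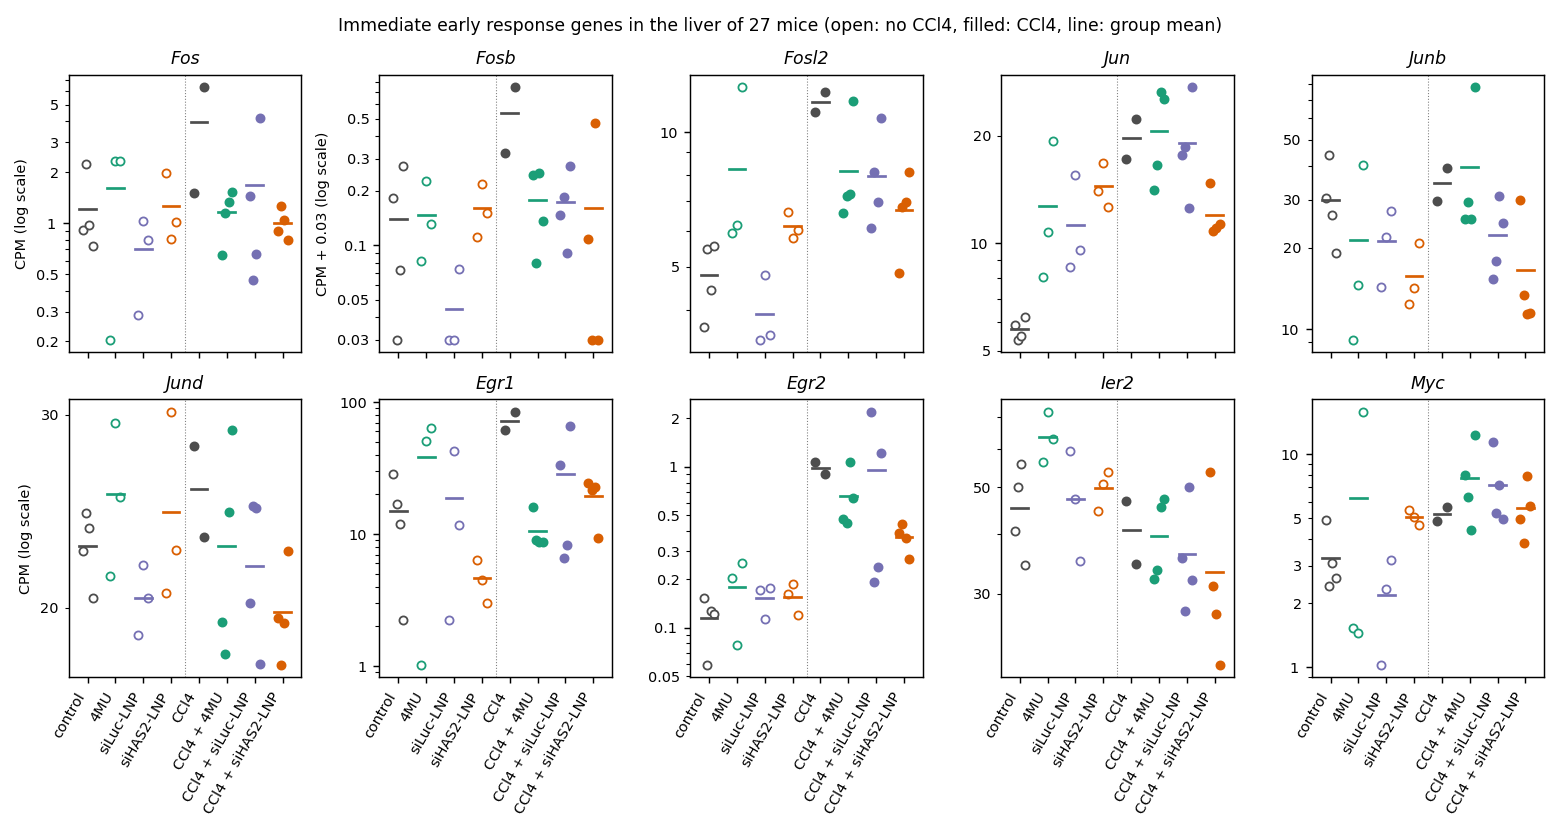
CPM (counts scaled to library size, log axis) of the 10 genes in each mouse, by group. Open points are mice without CCl4, filled points are mice with CCl4, and lines are group means. Fosb is drawn as CPM + 0.03 because some libraries had no count. Egr2 is higher in most filled points than in the open ones, Jun is lowest in the 4 control mice, and Egr1 spans from 1.02 to 84 CPM.

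The spread between mice of the same group was large for several of these genes. It is given as the biological coefficient of variation, the relative spread that remains after counting error. It was 0.769 for Egr1, higher than in 99.6% of the 14114 tested genes, and 0.581 for Fos, higher than in 98.6%. It was 0.491 for Myc, 0.472 for Egr2 and 0.400 for Junb, against a median of 0.198 over all tested genes. Jun (0.249), Ier2 (0.232) and Fosl2 (0.229) were closer to the median. Jund, known as the AP-1 subunit that is present at rest, was the steadiest with 0.154. Among the 3 mice given 4MU alone, Egr1, a factor of wound repair, measured 1.02, 50.5 and 64.1 CPM, so mouse 1 was apart from the other two.

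**Figure D2:**
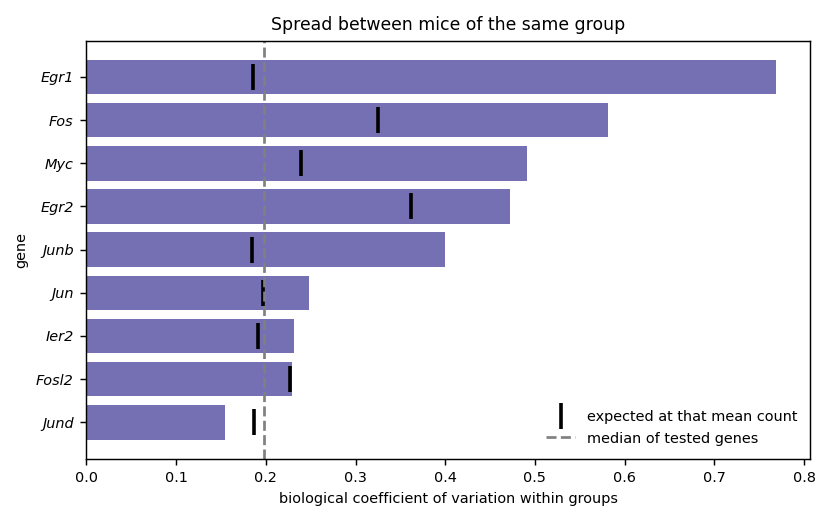
Biological coefficient of variation within groups for the 9 tested genes (bars). Black marks show the value expected at the gene's mean count and the dashed line the median of all tested genes, 0.198. The bars of Egr1, Fos, Myc, Egr2 and Junb reach well past the line, and only the bar of Jund ends before it.

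The 27 libraries held 7044386 to 29425937 counts. On these unscaled totals, 3 counts corresponded to 0.102 to 0.426 CPM, while the other CPM values here are on scaled totals. Has2, the target of the siRNA, had 0 counts in 25 libraries, 2 in CCl4 mouse 2 and 1 in CCl4 + siLuc-LNP mouse 4, so its knockdown was not detectable at this depth and the siHAS2-LNP labels could not be checked on it. The mean Spearman correlation of a library to its own group was 0.961 and 0.967 in CCl4 + siLuc-LNP mice 4 and 3, 0.968 in siLuc-LNP mouse 1 and 0.973 or higher in the others. CCl4 + 4MU mouse 4 held 121.4 CPM of 4 cholangiocyte markers summed, against 3.25 to 23.3 CPM in the other 26 libraries. The results were also computed without 3 libraries that stood apart (CCl4 + siLuc-LNP mouse 4, siLuc-LNP mouse 1 and CCl4 + 4MU mouse 4), a choice made after the data were seen, and CCl4 + siLuc-LNP mouse 3 was kept in it. The hepatocyte markers, Alb among them, were abundant in every library (72660 to 202500 CPM summed over 7 genes). In the CCl4 effect averaged over the 4 arms, where 26.3% of all tested genes rose and 25.6% fell, 6 of 7 markers of monocytes and macrophages, 5 of 5 of proliferation, 5 of 7 of stellate cells and myofibroblasts and 4 of 4 of cholangiocytes rose, while 4 of 5 Kupffer cell markers and 4 of 7 hepatocyte markers fell. The stellate list also held 1 gene that fell and the hepatocyte list 1 that rose. The summed level of the monocyte and macrophage markers was 139.4 to 691.5 CPM in CCl4 mice and 43.3 to 203.9 CPM in the others. Of the other lists, neutrophil markers had 1 of 6 higher, endothelial markers 3 of 5 higher and 1 lower, T cell markers 1 of 4 lower, B cell markers 2 of 3 lower and erythroid markers 2 of 3 lower. No marker on any of the 11 lists was at 0 in all libraries of a group. The part of these shifts in the results below was not tested. For 6 of the 10 genes (Fosl2, Jun, Junb, Jund, Egr2 and Myc) an annotated gene on the opposite strand overlaps, such as Prdx2 beside Junb. Whether reads were counted by strand is not given in the sources used here, so reads of such partners may be part of these counts.

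The first question was how the genes responded to CCl4 injury. Averaged over the 4 arms (no treatment, 4MU, siLuc-LNP and siHAS2-LNP), Egr2, Jun, Fosl2 and Myc rose and Ier2 fell, by the quasi-likelihood test of edgeR and p-values adjusted after Benjamini and Hochberg over the 14114 genes. These were 5 of the 9 genes, while 51.9% of all tested genes passed the same threshold, so the share is near the background. The log2 fold change of Egr2, a factor induced in macrophages and fibroblasts, was 2.19 with a standard error of 0.337 (adjusted p = 7.84e-06). Jun rose by 0.75 (standard error 0.142, adjusted p = 0.000114) and Fosl2, an AP-1 subunit linked to fibrosis, by 0.61 (standard error 0.134, adjusted p = 0.00053). Myc rose by 0.72 (standard error 0.289, adjusted p = 0.0411). Ier2 fell by 0.45 (standard error 0.130, adjusted p = 0.00615). Egr1 (0.78, adjusted p = 0.157), Fos (0.55, adjusted p = 0.192), Junb (0.31, adjusted p = 0.263) and Jund (-0.048, adjusted p = 0.662) did not pass. Egr1 passed without siLuc-LNP mouse 2 (adjusted p = 0.0421) and Junb without 4MU mouse 3 (adjusted p = 0.0435).

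Egr2 had the clearest separation. It measured 0.153, 0.059, 0.128 and 0.123 CPM in the control mice and 1.07 and 0.903 CPM in the CCl4 mice. With 4MU it was 0.205, 0.078 and 0.253 CPM without CCl4, and 0.473, 0.448, 1.07 and 0.640 CPM with it. With siLuc-LNP it was 0.171, 0.114 and 0.176 CPM without and 2.19, 0.193, 0.240 and 1.21 CPM with CCl4. The CCl4 + siLuc-LNP mice thus fell into a high and a low pair. With siHAS2-LNP it was 0.161, 0.189 and 0.120 CPM without and 0.391, 0.439, 0.361 and 0.267 CPM with CCl4, and these groups did not overlap. Of the 14 CCl4 mice, 12 lay above all 13 others, a pattern or stronger shown by 6.52% of tested genes. The 0.267 CPM stood for 2 counts in CCl4 + siHAS2-LNP mouse 4, the library of lowest depth. The lack of overlap in the siHAS2-LNP arm and the place of this mouse among the 12 rest on those 2 counts. The levels of Egr2 rest on 1 to 5 counts in the mice without CCl4 and 2 to 56 with it, so the size of the fitted change depends on the prior count. Its mean of 10.5 counts over all mice reached the filter of 10 only through the CCl4 mice. As summed counts, 46 in the CCl4 mice against 10 in the control mice gave a ratio of 8.25, with an exact 95% interval of 4.11 to 18.3 that covers counting error only.

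Jun, the main partner of Fos, measured 5.90, 5.37, 5.50 and 6.21 CPM in control and 17.2 and 22.3 CPM in CCl4 mice. It was 8.04, 10.7 and 19.3 CPM with 4MU and 14.1, 16.6, 26.5 and 25.4 CPM with CCl4 + 4MU. It was 8.57, 15.5 and 9.57 CPM with siLuc-LNP and 17.6, 18.6, 12.5 and 27.3 CPM with CCl4 + siLuc-LNP. The siHAS2-LNP arm did not show this order, with 14, 16.8 and 12.6 CPM without CCl4 and 14.7, 10.8, 11.1 and 11.3 CPM with it. All 14 CCl4 mice were above the median of the 13 others, as for Egr2 and Myc, and 11.1% of tested genes showed this pattern.

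Myc ranged from 3.85 to 12.3 CPM with a median of 5.71 CPM in the 14 CCl4 mice, and from 1.03 to 15.8 CPM with a median of 3.07 CPM in the other 13. The value of 15.8 CPM belonged to 4MU mouse 3, and the other two mice given 4MU held 1.53 and 1.44 CPM. The adjusted p of Myc was 0.0508 to 0.0814 without any 1 of 15 mice (control mice 2, 3 and 4, 4MU mice 1 and 2, both CCl4 mice, CCl4 + 4MU mice 1 and 4, siLuc-LNP mice 1 and 2, CCl4 + siLuc-LNP mouse 1, siHAS2-LNP mice 2 and 3, and CCl4 + siHAS2-LNP mouse 3), and 0.0974 without the 3 libraries that stood apart. Fosl2 ranged from 4.85 to 12.3 CPM (median 7.22) with CCl4 and from 3.43 to 12.6 CPM (median 5.56) without it, again with its highest value in 4MU mouse 3. Ier2 ranged from 21.3 to 53.7 CPM (median 34.1) with CCl4 and from 34.4 to 71.7 CPM (median 50.8) without it. Of the CCl4 mice, 7 held less Ier2 than any mouse without CCl4, which at least as many did for 14.3% of tested genes.

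In CCl4 against control mice alone, Jun (1.78, standard error 0.302, adjusted p = 7.49e-05), Fosl2 (1.29, standard error 0.280, adjusted p = 0.00101) and Egr2 (adjusted p = 0.00152) rose, 3 of 9 genes against 34% of all tested genes. Fosl2 was 3.66, 5.48, 4.44 and 5.56 CPM in control and 11.1 and 12.3 CPM in CCl4 mice. The other 6 genes did not pass, with log2 fold changes of 2.28 for Egr1 (adjusted p = 0.0619), 1.72 for Fos (0.0586), 0.70 for Myc (0.407), 0.21 for Junb (0.773), 0.17 for Jund (0.495) and -0.15 for Ier2 (0.715). The median over the 9 genes was 1.29, and that over all tested genes -0.023. Jun, Fosl2, Egr2 and Egr1 did not overlap between the groups, higher with CCl4, as did 25.7% of tested genes. Egr1 measured 28.6, 17.0, 12 and 2.25 CPM in control and 61.0 and 84.0 CPM in CCl4 mice, and it passed without control mouse 1 (adjusted p = 0.0406). Fos, the subunit that gives AP-1 its rapid onset, measured 0.915, 2.24, 0.981 and 0.735 CPM in control and 1.51 and 6.36 CPM in CCl4 mice, which did. Without CCl4 mouse 2 the change of Fos was 0.35 (adjusted p = 0.842), while it passed the threshold without CCl4 mouse 1 (adjusted p = 0.0225) or control mouse 2 (0.032). Fosb, not tested, measured 0.292 and 0.715 CPM in the CCl4 mice and 0 to 0.245 CPM in the control mice.

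The 3 treated arms were examined in the same way. In CCl4 + 4MU against 4MU mice, Egr2 rose by 1.91 (adjusted p = 0.0332) and Ier2 fell by 0.68 (adjusted p = 0.0469), 2 of 9 against 23.7% of all tested genes. Ier2 was 56.6, 71.7 and 63.0 CPM with 4MU and 32.2, 33.7, 45.4 and 47.3 CPM with CCl4 + 4MU, without overlap, as for 17.7% of tested genes in this direction. Jun (0.70, adjusted p = 0.0652) and Egr1 (-1.86, adjusted p = 0.124) did not pass. Both calls were lost without single mice, at folds close to those with all mice. The adjusted p of Egr2 was above 0.05 without any 1 of the 4MU mice or CCl4 + 4MU mouse 4 (0.0541 to 0.152, log2 fold change 1.51 to 2.25), and that of Ier2 without any 1 mouse except CCl4 + 4MU mouse 4 (0.0519 to 0.152, log2 fold change -0.76 to -0.59). Jun passed without 4MU mouse 3 (0.00934) or CCl4 + 4MU mouse 1 (0.0356), and Egr1 without 4MU mouse 1 (0.0319). In CCl4 + siLuc-LNP against siLuc-LNP mice, Egr2 rose by 2.62 (adjusted p = 0.00505), Fosl2 by 1.04 (adjusted p = 0.00615), Myc by 1.70 (adjusted p = 0.0386) and Jun by 0.77 (adjusted p = 0.0451), 4 of 9 against 24.2%. Without the 3 libraries that stood apart Egr2 was under the count filter and the other 3 no longer passed (adjusted p = 0.0659, 0.143 and 0.422). Egr2 did not pass with limma-voom (1.86, adjusted p = 0.0515) or with the compared groups alone (2.61, edgeR, adjusted p = 0.0938). Jun also did not pass without any 1 of siLuc-LNP mice 1 and 3 and CCl4 + siLuc-LNP mice 1, 2 and 4 (adjusted p = 0.0556 to 0.191), nor Myc without siLuc-LNP mouse 1 or 2 or CCl4 + siLuc-LNP mouse 1 (0.0856 to 0.165). In CCl4 + siHAS2-LNP against siHAS2-LNP mice 0 of 9 genes passed in edgeR, where 12.8% of all tested genes did. At an unadjusted p under 0.05 there were 2 (27.3% of all tested genes), limma-voom gave 1 and DESeq2 gave 0. Here Egr1 (2.09, adjusted p = 0.16) and Egr2 (1.22, adjusted p = 0.275) had the largest values, and the mice did not overlap for either, as for 15.2% of tested genes, while Jun was at -0.27 (adjusted p = 0.576).

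**Figure D3:**
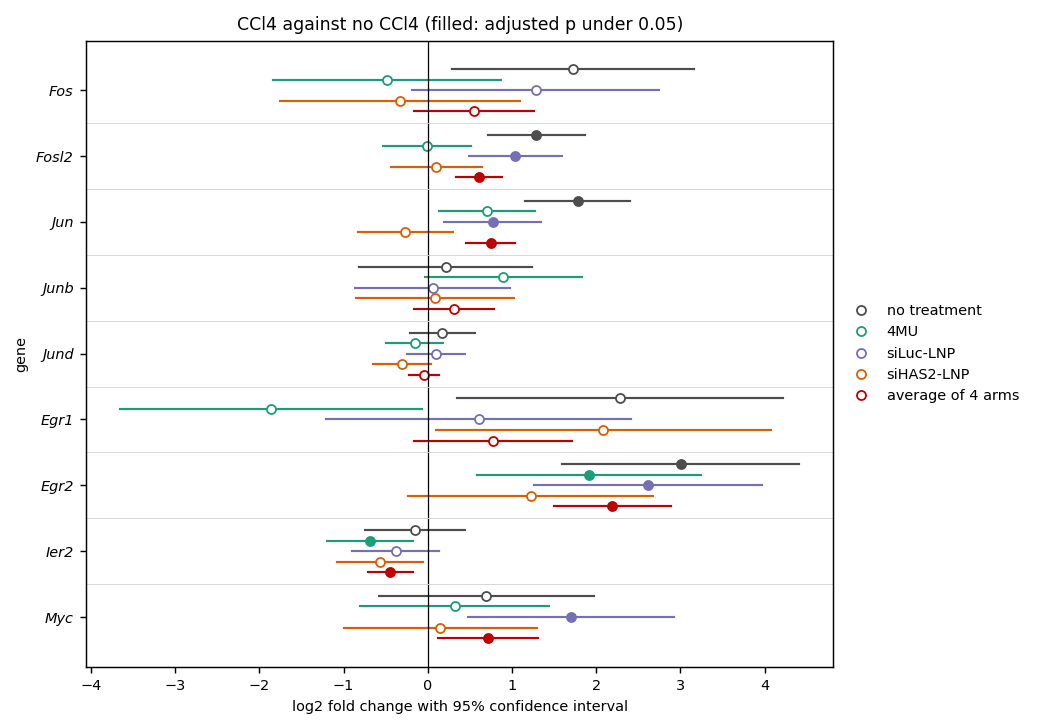
Log2 fold change of the 9 tested genes for CCl4 against no CCl4 within each of the 4 arms and averaged over them (red), with 95% confidence intervals from edgeR. Filled points passed an adjusted p of 0.05. Egr2 lies to the right of 0 in each arm, Ier2 to its left in each arm, and Egr1 points to opposite sides with 4MU and in the other arms. Without CCl4 mouse 2, Ier2 in the untreated arm changes to 0.075.

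The next question was how these genes differed in CCl4 mice given 4MU or siHAS2-LNP, both started before the injury. In CCl4 + 4MU against CCl4 mice Egr1 fell, with a log2 fold change of -2.77 and a standard error of 0.943 (adjusted p = 0.0425), 1 of 9 genes against 18.3% of all tested genes. The 4 CCl4 + 4MU mice held 16.1, 9.07, 8.64 and 8.78 CPM, below the 61.0 and 84.0 CPM of the CCl4 mice, an order that 21.5% of tested genes showed. The call did not hold without any 1 of these 6 mice (adjusted p = 0.0565 to 0.222), with limma-voom (0.147) or with the replicate block (0.0835). Fos measured 0.645, 1.15, 1.33 and 1.53 CPM in these mice (log2 fold change -1.76, adjusted p = 0.0759). This value rested on CCl4 mouse 2, without which it was -0.40 (adjusted p = 0.857), while it passed without CCl4 mouse 1 (0.0328). Fosl2 (-0.51, adjusted p = 0.200) and Egr2 (-0.56, adjusted p = 0.52) did not pass either. The summed proliferation markers were 44.3 to 196.5 CPM in these mice and 289 to 551.6 CPM in CCl4 mice (5 of 5 fell). The hepatocyte markers were 148100 to 177500 against 72660 to 128100 CPM (4 of 7 rose), and the heat shock genes 1116 to 1536 against 1577 to 2374 CPM (3 of 9 fell). The monocyte and macrophage markers summed to 427.6 to 691.5 against 263.8 to 311 CPM, although gene by gene 0 of 7 rose and 1 fell, with a median log2 fold change of -0.20. Their part in the result was not tested.

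In CCl4 + siHAS2-LNP against CCl4 mice none of the 9 genes passed in edgeR, where 14.4% of all tested genes did. At an unadjusted p under 0.05 there were 5 (29.9% of all tested genes), and DESeq2 gave 2 past the adjusted threshold, Fos and Fosl2. In edgeR, Fos passed without CCl4 mouse 1 (adjusted p = 0.029) but was at -0.59 without CCl4 mouse 2 (adjusted p = 0.8). Fosl2 passed in 8 of 14 alternatives and not in the other 6. Among the 8 were DESeq2 (adjusted p = 0.0301), the replicate block (edgeR, 0.00819) and the fit without CCl4 + siHAS2-LNP mouse 4 (edgeR, 0.0499). That mouse is the library of lowest depth, and the fit without it was counted under 2 settings. For 6 of the 9 genes, Fos, Fosl2, Jun, Jund, Egr1 and Egr2, all 4 CCl4 + siHAS2-LNP mice were below both CCl4 mice, a pattern that 18.8% of tested genes showed. The log2 fold changes of these were -1.95 for Fos (adjusted p = 0.0638), -1.87 for Egr1 (0.18), -1.37 for Egr2 (0.133), -0.82 for Fosl2 (0.0503), -0.72 for Jun (0.111) and -0.38 for Jund (0.174). Fosl2 measured 4.85, 6.78, 6.97 and 8.13 CPM and Egr1 24.3, 21.6, 22.8 and 9.33 CPM in these mice. Jund was 19.6, 17.8, 19.4 and 22.5 CPM against 28.1 and 23.2 CPM in CCl4 mice. The median over the 9 genes was -0.82, and that over all tested genes 0.016. Myc did not share this, with 4.97, 3.85, 7.93 and 5.73 CPM against 4.86 and 5.68 CPM. The markers of stellate cells and myofibroblasts summed to 280.2 to 373.6 CPM in these mice and 518.9 to 802.2 CPM in CCl4 mice, and 3 of 7 fell. Those of Kupffer cells summed to 89.2 to 123.5 against 241.8 to 268.1 CPM (4 of 5 fell) and those of endothelium to 54.8 to 69.8 against 89.1 to 101.5 CPM (2 of 5 fell). The proliferation markers summed to 141.8 to 169.5 against 289 to 551.6 CPM (2 of 5 fell) and the heat shock genes to 1310 to 1474 against 1577 to 2374 CPM (2 of 9 fell). Their part in the result was not tested.

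The CCl4 + siLuc-LNP mice are the matched control for the particle and its injection. Against CCl4 mice none of the 9 genes passed in them, while 0.248% of all tested genes did. Unadjusted, 0 had a p under 0.05 (14.2% of all tested genes), and limma-voom and DESeq2 gave 0. Fosl2, with 6.10, 8.13, 6.96 and 10.8 CPM, was below both CCl4 mice in all 4, as 7.32% of tested genes were (-0.55, adjusted p = 0.382). Egr1 measured 33.3, 6.59, 8.22 and 66.0 CPM and Fos 1.45, 0.463, 0.660 and 4.15 CPM, so mice 1 and 4 of this group were high in both and mice 2 and 3 low. In CCl4 + siHAS2-LNP against CCl4 + siLuc-LNP mice 0 of 9 passed in edgeR, with limma-voom and with DESeq2, against 1.09% of all tested genes in edgeR, and 2 had an unadjusted p under 0.05 (16.6% of all tested genes). These 2 were Jun (-0.67, 95% interval -1.19 to -0.14, adjusted p = 0.176) and Egr2 (-1.37, 95% interval -2.44 to -0.29, adjusted p = 0.179). The 3 comparisons with the CCl4 group share its 2 mice, so they are not independent of each other.

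**Figure D4:**
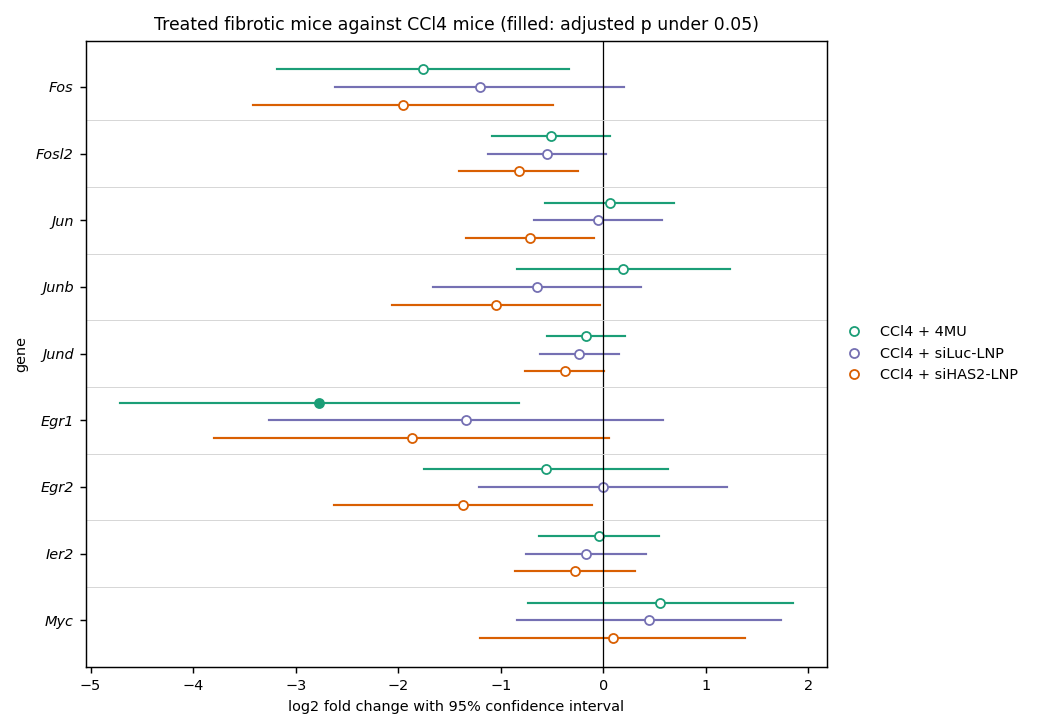
Log2 fold change of the 9 tested genes in the 3 treated fibrotic groups, each against the same 2 CCl4 mice, with 95% confidence intervals from edgeR. The filled point, Egr1 with 4MU at -2.77, passed an adjusted p of 0.05. The points of CCl4 + siHAS2-LNP lie left of 0 for each gene except Myc.

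Without CCl4 none of the treatments moved a gene past the threshold, and Jun came closest. For 4MU against control 0 of 9 passed in edgeR (0.00709% of all tested genes), 2 had an unadjusted p under 0.05 (6.84%), and DESeq2 gave 1, Jun. For siLuc-LNP against control 0 passed (0.213%), with 1 unadjusted (6.8%) and 0 by DESeq2. For siHAS2-LNP against siLuc-LNP 0 passed (0.0425%), with 1 unadjusted (8.94%) and 0 by DESeq2. limma-voom gave 0 in these 3 comparisons. The 4 control mice held less Jun than all 23 other mice, at 5.37 to 6.21 CPM against 8.04 to 27.3 CPM. Among the tested genes 4 showed this order (0.0283%), namely Ltbp3, Ccdc3, Exo1 and Jun, a pattern looked for after the values were seen. The log2 fold change of Jun against control was 1.14 with 4MU (unadjusted p = 0.000393, adjusted p = 0.222), 0.96 with siLuc-LNP (adjusted p = 0.286) and 1.33 with siHAS2-LNP (unadjusted p = 6.62e-05, adjusted p = 0.055). The last comparison was added after the data were seen, and 0.0992% of tested genes passed in it. With 4MU, DESeq2 put Jun past the threshold (adjusted p = 0.032), while in 13 of 15 alternatives it did not pass (adjusted p up to 0.781). With siHAS2-LNP, Jun passed in 6 of 15 alternatives. These were DESeq2 (0.00303), limma-voom (0.0196), the compared groups alone (0.00522), no low-count filter (3.43e-06), the replicate block (0.0388) and the fit without the 3 libraries that stood apart (0.0212). Jun did not pass in the other 9 (edgeR, adjusted p up to 0.3535), each fit without 1 mouse among them. Without the filter the adjusted p was below the unadjusted p of the main fit, at a like fold change (1.35 against 1.33).

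Of the other genes without CCl4, Fosl2 measured 5.94, 6.20 and 12.6 CPM with 4MU, above all control mice (0.78, adjusted p = 0.409). Ier2 with 4MU, at 56.6 to 71.7 CPM, was above the 34.4 to 55.9 CPM of the control mice (0.50, adjusted p = 0.754). With Jun these were 3 genes without overlap, against 3.47% of all tested genes. Between siHAS2-LNP and siLuc-LNP mice, Fosl2 (0.66, adjusted p = 0.482) and Myc (1.19, adjusted p = 0.592) were higher in all 3 siHAS2-LNP mice, and 8.22% of tested genes were. Myc was 5.45, 5.09 and 4.66 CPM in these and 1.03, 2.33 and 3.20 CPM with siLuc-LNP.

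The difference between arms in the response to CCl4 was tested directly. Fosl2 responded less with 4MU than without (log2 interaction -1.29 with a standard error of 0.379, adjusted p = 0.0449), 1 of 9 genes against 5.67% of all tested genes. It rose from 4.78 ± 0.907 CPM in control (SD, n = 4) to 11.7 ± 0.862 in CCl4 mice (n = 2), while the values were 8.25 ± 3.77 with 4MU (n = 3) and 8.19 ± 2.38 with CCl4 + 4MU (n = 4). The mean with 4MU alone included the 12.6 CPM of mouse 3, and without that mouse the adjusted p was 0.152. The call was also lost without any 1 of control mice 1, 2 and 3, 4MU mouse 2, both CCl4 mice and CCl4 + 4MU mice 1, 2 and 3 (adjusted p = 0.0522 to 0.198). The interaction of Egr1 was -4.14 (standard error 1.28, adjusted p = 0.0537, and 0.0252 without 4MU mouse 1) and that of Jun -1.08 (adjusted p = 0.103). The interaction of siLuc-LNP with CCl4, and that of siHAS2-LNP relative to siLuc-LNP, had 0 of 9 genes past the threshold in edgeR, with 1 and 2 at an unadjusted p under 0.05 (10% and 11.4% of all tested genes) and 0 by limma-voom and DESeq2. In these 0.00709% and 0.0354% of all tested genes passed.

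Whether the genes varied together from mouse to mouse was examined on log2 CPM after removal of each group's mean. Of 17 relations of Fos (9 genes and 8 measures of the libraries), that with Egr1 passed, with Pearson's r = 0.79 (permutation within groups, adjusted p = 0.0104) and Spearman's rho = 0.74 (permutation, adjusted p = 0.0163) over 27 mice. Without 4MU mouse 1 and CCl4 + siLuc-LNP mouse 4, the 2 mice with the farthest Fos values, r was 0.68. No relation passed the threshold over the remaining 25 mice. The next highest was Jun (r = 0.61, permutation adjusted p = 0.19, and 0.45 without those 2 mice). Jund (-0.052) and Ier2 (0.0043) had the lowest values among the genes. The summed heat shock genes, the hepatocyte markers, the total counts and the mitochondrial share had r of 0.31, -0.25, 0.16 and 0.14 with Fos, none of which passed. The markers of proliferation (0.46), monocytes and macrophages (0.41), stellate cells (0.30) and neutrophils (0.035) did not pass either. Over the 36 pairs of the 9 tested genes, 30 had a positive r, with a median of 0.28. Pairs of other genes were not computed, so whether this is more than in any set of genes is not known. As a description over the same 27 mice, the genes most like Fos among 12880, which left out the 10 genes and predicted gene models, were Fnbp1l (r = 0.79), Eef1e1 (0.78), Kcnj2 (0.75), Map1a (0.75) and Ly6a (0.74). Among the same 12880, those most like Myc were Ikbkg (r = 0.81), Srxn1 (0.80), Gsta1 (0.75), Ppfibp2 (0.73) and Ephx1 (0.72), of which Srxn1, Gsta1 and Ephx1 are known for oxidative stress and xenobiotic metabolism.

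**Figure D5:**
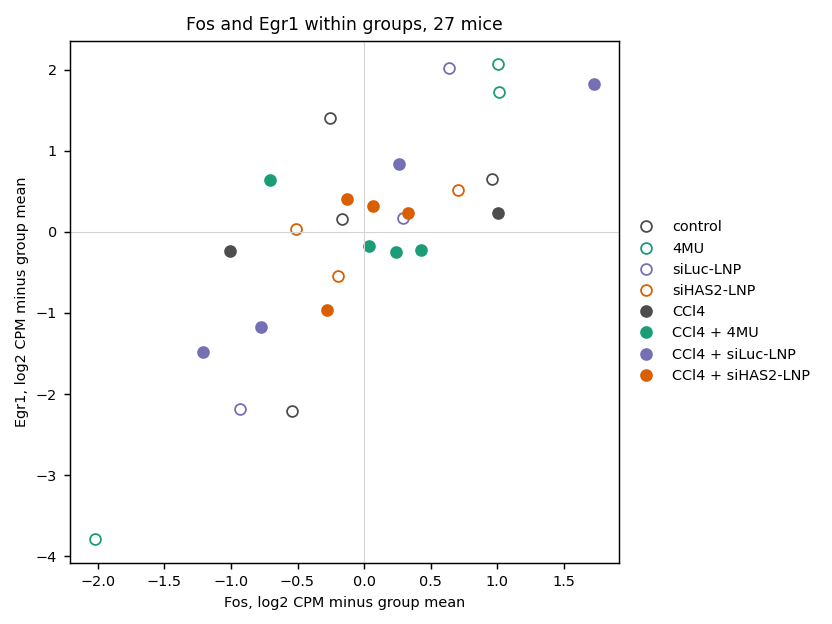
Fos against Egr1 in 27 mice, each as log2 CPM minus the mean of the mouse's group. The points run from low in both (4MU mouse 1, lower left) to high in both (CCl4 + siLuc-LNP mouse 4, upper right), with r = 0.79 over all mice and 0.68 without these 2.

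Several mice were high or low in many of these genes at once. 4MU mouse 3 and CCl4 + 4MU mouse 4 were among the 3 highest of the 27 mice in 5 of the 9 tested genes, and CCl4 + siLuc-LNP mouse 4 in 4. 4MU mouse 1 and siLuc-LNP mouse 1 were among the 3 lowest in 4 genes. How often these mice were as extreme over all tested genes was not computed. CCl4 + 4MU mouse 4, CCl4 + siLuc-LNP mouse 4 and siLuc-LNP mouse 1 are the 3 libraries that stood apart, so this need not be particular to these genes. In CCl4 + 4MU mouse 4, the library with the high cholangiocyte markers, Junb measured 77.9 CPM against 25.4, 29.4 and 25.5 CPM in the rest of its group. The part of the cholangiocyte markers in this value was not tested.

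Other genes of the same response were counted on fixed lists in the CCl4 effect averaged over the 4 arms. As above, 51.9% of all tested genes passed there, 26.3% higher and 25.6% lower. Of other AP-1 and related genes, 1 of 10 tested rose and 3 fell. Atf3, a stress factor that pairs with Jun, rose by 1.22 on the log2 scale (adjusted p = 6.08e-06), from 2.56 ± 0.793 CPM in 13 mice (SD) to 5.98 ± 2.75 CPM in 14, and Atf4 and Batf3 fell by 0.36 and 0.62. Of other primary response transcription factors 4 of 18 rose and 6 fell, with the smallest adjusted p for Klf2 (fell by 0.55), Id2 (fell by 0.59) and Klf10 (fell by 0.92). Of 20 feedback inhibitors 5 rose and 5 fell. Btg2, which restrains the cell cycle, rose by 1.12 (adjusted p = 4.65e-07), Dusp5, a phosphatase of ERK, rose by 1.38, and Spry4, an inhibitor of receptor kinase signals, fell by 1.05. Of 15 effectors 7 rose and 2 fell, among them Plk2 (1.12), Plaur, the urokinase receptor (2.23, adjusted p = 2.12e-07), and Plk3 (fell by 1.00). Of 20 upstream factors and kinases 7 rose and 2 fell. Mrtfa, a partner of serum response factor, rose by 0.50, Elk1 by 0.34, and Elk4 fell by 0.40, while Srf itself was at 0.051 (adjusted p = 0.674).

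Of the 14 genes of the Myc network 2 rose and 3 fell. Mxd3, a partner of Max expressed in dividing cells, rose by 3.99 (adjusted p = 1.5e-11), from 0.266 ± 0.185 to 3.48 ± 1.79 CPM (SD, 13 and 14 mice), Mxi1 fell by 0.52 and Mlxip rose by 0.38. Of 20 Myc target genes of ribosome production and growth, 8 rose and 2 fell, led by Ldha (0.77), Cad (1.00) and Rrp12 (0.47). In CCl4 against control mice 11 of these 20 rose and 0 fell, with a median log2 fold change of 0.58. In CCl4 + 4MU against CCl4 mice 0 rose and 13 fell (median -0.70), and in CCl4 + siHAS2-LNP against CCl4 mice 0 rose and 11 fell (median -0.61). In these 3 comparisons 18% of tested genes rose, 10% fell and 7.33% fell, respectively, and Myc itself did not pass. The comparisons share the 2 CCl4 mice. In CCl4 + siLuc-LNP against CCl4 mice, where 0 of the 20 passed, the median was -0.52. Of 9 heat shock genes, which respond to tissue handling, 2 rose and 2 fell (Hsp90aa1 0.42, Hspd1 0.22, Hsph1 -0.43), and their summed level was highest in CCl4 mouse 2 (2374 CPM, against 1116 to 1871 CPM in the other 26 mice), the mouse with the highest Fos, Fosb and Egr1. The part of tissue handling in these values was not tested. Of 12 clock genes 0 rose and 1 fell (Cry2, by 0.43), with Nr1d2 (-0.36) and Nr1d1 (-0.35) next.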

How the data were processed

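The authors trimmed paired-end reads with Trimmomatic 0.39, aligned them to GRCm39 with HISAT2 and counted fragments per gene of Ensembl release 105 with featureCounts, without multi-mapping reads. They deposited raw counts for the 27 libraries, 1 per mouse, of 7044386 to 29425937 counts. Whether counting used strand is not given in the sources used here. Symbols came from GENCODE vM39 (665 of 55414 identifiers had no entry), and RPKM used exon length. Mice were grouped by label.

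The 14114 genes whose mean count reached 10 were fitted in 1 model of the 8 groups with edgeR 4.0.16 (TMM scaling, quasi-likelihood test, R 4.3.3), with Benjamini-Hochberg adjustment at 0.05 over all tested genes. CPM are counts relative to TMM-scaled totals. Correlations used log2 CPM with a prior count of 2, 100000 permutations within groups, and a pseudocount of 0.1 for Fosb. The intervals on counts cover counting error only. Alternatives were DESeq2 1.42.0, limma 3.58.1 (voom with quality weights), other size factors, no filter, a replicate block, the compared groups alone and each mouse left out. The tests were tested on simulated data. The 10 genes, the 9 lists of 148 other genes and the 11 marker lists were chosen with earlier results of these data known. Named were all 10 genes and, for each list, the 3 tested genes of smallest adjusted p in the averaged CCl4 effect, with the 5 genes most like Fos and Myc; Srf, Ltbp3, Ccdc3, Exo1 and Prdx2 were named after their values were seen. Within groups, pairs of libraries differed beyond counting error (chi-square per degree of freedom 15.3 to 416), so none was counted as a duplicate.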

Additional observations from a re-analysis of the deposited data

Results flagged for a closer look

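Within groups of 4 mice, 1 value was far from the rest by Dixon's test in 6 of the 40 groups of the 10 genes. Chance gives about 1 in 20 for independent values of normal spread. The test used CPM without log transformation, all 6 values were the highest of their group, and the 10 genes share the same mice. The 2 rates therefore cannot be compared, and the 6 values are given as a description. Fos was 2.24 CPM in control mouse 2 and 0.735 to 0.981 CPM in the rest of its group. CCl4 + 4MU mouse 1 held 16.1 CPM of Egr1, while the rest of that group ranged from 8.64 to 9.07 CPM. In CCl4 + 4MU mouse 4, the library with 121.4 CPM of cholangiocyte markers, Fosl2 was 11.7 CPM against 6.58 to 7.27 CPM and Junb 77.9 CPM against 25.4 to 29.4 CPM. In CCl4 + siHAS2-LNP mouse 1, Jun was 14.7 CPM against 10.8 to 11.3 CPM and Junb 29.9 CPM against 11.4 to 13.4 CPM. The response of Fosl2 to CCl4 differed between mice with and without 4MU, by an interaction of -1.29 on the log2 scale (edgeR, adjusted p = 0.0449). The call was lost without 4MU mouse 3 (-0.86, edgeR, adjusted p = 0.152) and without several other single mice.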

How the results depend on the processing

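Of 940 recomputed values of 53 fold changes, 818 kept direction and side of the threshold, 62 lost and 59 gained a call, and 1 turned: Ier2 in CCl4 against control was 0.075 without CCl4 mouse 2, within a range of -0.37 to 0.075 without 1 mouse. Averaged over arms, the calls of Jun, Fosl2 and Ier2 held in all 34 alternatives and that of Egr2 in the 29 that tested it. In the other 5 Egr2 was under the count filter, 4 of them with 1 mouse left out. Those mice held 24 to 56 counts of Egr2: CCl4 mouse 2, CCl4 + 4MU mouse 3, and CCl4 + siLuc-LNP mice 1 and 4. The call was thus not examined without any 1 of them. Where Egr2 was under the filter it could not be counted as passing, which can lower the counts below. Counts of genes past the threshold follow, in the order CCl4 against control, the 4MU, siLuc-LNP and siHAS2-LNP arms and their average. Without the low-count filter they were 5, 5, 4, 2 and 8. At a like fold change this setting gave a far lower adjusted p for Egr1 in the 4MU interaction (edgeR, -4.14 and 2.85e-09, against 0.0537 with the filter). With limma-voom the 3 treated arms gave 4, 2 and 1, and with the compared groups alone the siLuc-LNP arm gave 2 and the siHAS2-LNP arm 1. Without the 3 libraries that stood apart the 4MU arm gave 1, the siLuc-LNP arm 0 and the average 3. Leaving out 1 mouse gave 2 to 4, 0 to 3, 1 to 4, 0 to 1 and 3 to 6. For CCl4 + 4MU against CCl4 the count was 0 with limma-voom, 2 without the filter, 3 without the 3 libraries and 0 to 1 without 1 mouse. For CCl4 + siLuc-LNP against CCl4 it was 1 without the 3 libraries and 0 to 1 without 1 mouse. For CCl4 + siHAS2-LNP against CCl4 it was 2 with DESeq2, 1 with its size factors in edgeR, 5 without the filter, 4 with the compared groups alone, 2 without the 3 libraries, 1 without the shallowest library, CCl4 + siHAS2-LNP mouse 4, and 0 to 1 without 1 mouse. Without the filter, CCl4 + siHAS2-LNP against CCl4 + siLuc-LNP, siLuc-LNP against control, siHAS2-LNP against siLuc-LNP and the siHAS2-LNP interaction each gave 1, and 4MU against control 2 (1 with DESeq2). The 4MU interaction gave 2 with DESeq2, 4 without the filter, 2 without the 3 libraries and 0 to 2 without 1 mouse. Of the relations of Fos, 0 passed without 2 mice. With replicate numbers as a block, the 4MU arm gave 1 and CCl4 + siHAS2-LNP against CCl4 gave 1, while in CCl4 + 4MU against CCl4 Egr1 was lost and Fosl2 gained (adjusted p = 0.0331). Same-numbered mice did not deviate together (r = -0.32 to 0.293, and 4 of 27 libraries correlated best with their own number), so the numbers do not pair the samples. The causes were not tested. With 1 CCl4 mouse left, that mouse is assumed to vary like the other groups. Depth limits Egr2 and Fosb, and 2 CCl4 mice limit each comparison with that group.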
